A study of Homo sapiens with 18 samples.

Results

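The OAS and IFIT families are 2 groups of interferon-stimulated antiviral genes, and 8 of their members were followed here by gene name through 18 RNA-seq libraries: OAS1, OAS2, OAS3 and OASL, and IFIT1, IFIT2, IFIT3 and IFIT5. The 8 genes are 8 of the 57500 genes in the count table and all of them passed the filter on low counts, which left 16994 genes. OAS proteins bind double-stranded RNA and make 2-5A, a short oligoadenylate that serves as an antiviral messenger, whereas OASL binds RNA without making 2-5A and enhances RIG-I signalling. IFIT proteins are tetratricopeptide-repeat proteins, several of which bind foreign RNA ends: IFIT1 binds capped RNA that lacks the methyl mark of host messages, IFIT3 stabilizes IFIT1, IFIT2 takes part in the same complexes, and IFIT5 binds RNA with a 5′-triphosphate. Both families are classic targets of type I interferon, which acts through JAK1, TYK2 and the transcription factor ISGF3, which contains STAT2 and IRF9, and some members, IFIT2 among them, are also known to be induced directly by IRF3.

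All libraries came from IMR90 human fibroblasts that overexpressed Parkin, so that the uncoupler CCCP leads to the removal of mitochondria. The 6 groups, with 3 libraries each, were proliferating cells (Prol), cells made senescent by X-ray irradiation (Sen (IR)), irradiated cells exposed to CCCP (Sen (IR) + CCCP), and irradiated, CCCP-exposed cells that were given acetate, transfected with mitochondrial DNA (mtDNA) late in the course, or given both (the combination). All 4 groups with CCCP therefore share irradiation and mitochondrial depletion, and the design has no group with acetate or mtDNA and intact mitochondria. No group is labelled as given CCCP with its mitochondria retained, or as transfected without mtDNA. CCCP and the loss of mitochondria, and mtDNA and its transfection, therefore cannot be told apart. Each question is whether the transcript levels of these genes followed senescence, the presence of mitochondria, acetate or mtDNA. The labels do not say whether the libraries of a group came from separate cultures, although the study describes its cell culture experiments as independently repeated. The p-values measure the spread between these libraries.

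The libraries held 24624886 to 46224280 counts on genes. The 13 protein-coding mtDNA genes took 1.75% to 2.89% of counts without CCCP and 0.0461% to 0.237% with it. Summed TPM (a per-length scale) of the 8 fibroblast markers, led by COL1A1, ranged from 3773 to 17722, against 0.46 to 2.44 for 6 immune markers, 0.178 to 2.003 for 4 endothelial ones and 3.75 to 48.4 for 4 epithelial ones, mostly KRT19. Of the label checks, the proliferation gene MKI67 fell by 1.95 and the lamin gene LMNB1 by 1.49 on the log2 scale in Sen (IR) over Prol, and the cell-cycle inhibitor CDKN1A rose by 0.50. All 3 were called higher in Sen (IR) + CCCP over Sen (IR), by 0.151 to 0.997 (edgeR, adjusted p under 0.05). Of all genes tested, 34.0% were. With acetate over Sen (IR) + CCCP, 2 of the 3 were called lower (28.3% of all genes) and 1 higher (28.8%), from -3.23 to 0.75. A pair of libraries stood apart from the others of their groups: the chi-square per gene against their fellow replicates was 24.7 to 28.2 for combination replicate 2 and 22.1 to 27.2 for Sen (IR) replicate 3, against 2.77 to 7.69 for all other replicate pairs. Comparisons of the 8 OAS and IFIT genes that involve the combination are given with and without combination replicate 2. The other comparisons share a spread estimated over all 18 libraries, combination replicate 2 included. They were not refitted without it, apart from the fits to only the groups compared.

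The genes lie in clusters (GRCh38, GENCODE annotation). OAS1 (chr12:112905856-112933219), OAS3 (chr12:112938051-112976460) and OAS2 (chr12:112978395-113011723) follow each other on the + strand within 105868 bases, and OASL lies apart on the - strand at chr12:121017763-121039246. IFIT2 (chr10:89283694-89309271), IFIT3 (chr10:89327307-89377473), IFIT1 (chr10:89392546-89406487) and IFIT5 (chr10:89414568-89421605) lie on the + strand within 137912 bases. The IFIT cluster overlaps LIPA on the other strand, which shares 65 exonic bases with IFIT2, 94 with IFIT3 and 0 with IFIT1. The long non-coding gene AL353751.1 shares 524 exonic bases (12.1%) with IFIT2 on the same strand and had 0 to 7 counts in any library. AC004551.1, another one, shares 222 exonic bases with OAS1 on the opposite strand and had 0 or 1 counts. The study's methods state strand-aware counting for strand-specific libraries without saying whether these libraries were of that kind, so reads from the bases on opposite strands cannot be assigned with certainty, and those on the same strand cannot in either case. LIPA, a lysosomal lipase, was at 113 to 142 CPM (counts scaled to the size of the library) in Sen (IR), 50.7 to 55.3 CPM with CCCP and 68.9 to 84.9 CPM with mtDNA, and so moved in the direction of the IFIT genes.

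Promoter sequences are shown because the 8 genes moved together and this window is where interferon response elements are usually found. RefSeq promoter windows on GRCh38, 250 bases before to 50 after the start, were held for OAS1, OAS3, IFIT1, IFIT3 (at both of its starts) and IFIT5, but not for OAS2, OASL or IFIT2. The core of the interferon-stimulated response element (ISRE), bound by ISGF3 and IRFs, was searched on both strands as GAAA, any 2 bases, and GAAA, which reads TTTC, any 2 bases, and TTTC on the other strand. It was found in 5 of the 6 windows, against 1255 (3.57%) of all 35116 windows in the table. The stretches below are the 150 bases that end just before the start, on the + strand, with whole motifs in capitals: chr10:89392473-89392622 for IFIT1, chr10:89332379-89332528 for the downstream start of IFIT3, chr10:89414418-89414567 for IFIT5, chr12:112938324-112938473 for OAS3 and chr12:112906812-112906961 for OAS1.
IFIT1: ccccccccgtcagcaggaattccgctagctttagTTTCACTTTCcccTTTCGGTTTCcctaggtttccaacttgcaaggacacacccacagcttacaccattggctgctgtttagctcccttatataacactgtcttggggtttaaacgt
IFIT3: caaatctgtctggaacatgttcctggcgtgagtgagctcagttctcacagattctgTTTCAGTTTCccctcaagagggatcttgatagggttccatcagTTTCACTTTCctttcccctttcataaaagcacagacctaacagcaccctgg
IFIT5: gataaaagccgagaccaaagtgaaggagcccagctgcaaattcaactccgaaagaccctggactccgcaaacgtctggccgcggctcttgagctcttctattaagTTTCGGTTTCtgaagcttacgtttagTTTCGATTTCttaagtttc
OAS3: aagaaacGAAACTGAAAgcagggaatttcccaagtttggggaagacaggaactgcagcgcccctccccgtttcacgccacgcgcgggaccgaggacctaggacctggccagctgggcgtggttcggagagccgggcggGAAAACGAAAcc
OAS1: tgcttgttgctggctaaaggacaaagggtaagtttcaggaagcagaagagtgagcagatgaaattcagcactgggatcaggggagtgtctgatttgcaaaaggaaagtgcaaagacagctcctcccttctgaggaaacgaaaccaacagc
IFIT1 has its 2 motifs 116 to 107 and 103 to 94 bases before the start, IFIT3 94 to 85 and 51 to 42 bases, and IFIT5 45 to 36 and 19 to 10 bases, with another that runs across the start. OAS3 has motifs 143 to 134 and 12 to 3 bases before the start, on the other strand relative to those of the IFIT genes. The OAS1 window held no match to these letters. Its printed stretch holds gaaacgaaa near its end, with a shorter gap between the GAAA repeats than the search required. Shorter gaps were not searched for, so the missing match does not mean that OAS1 lacks an ISRE. These matches are a description of the letters and not of binding.

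**Figure D1:**
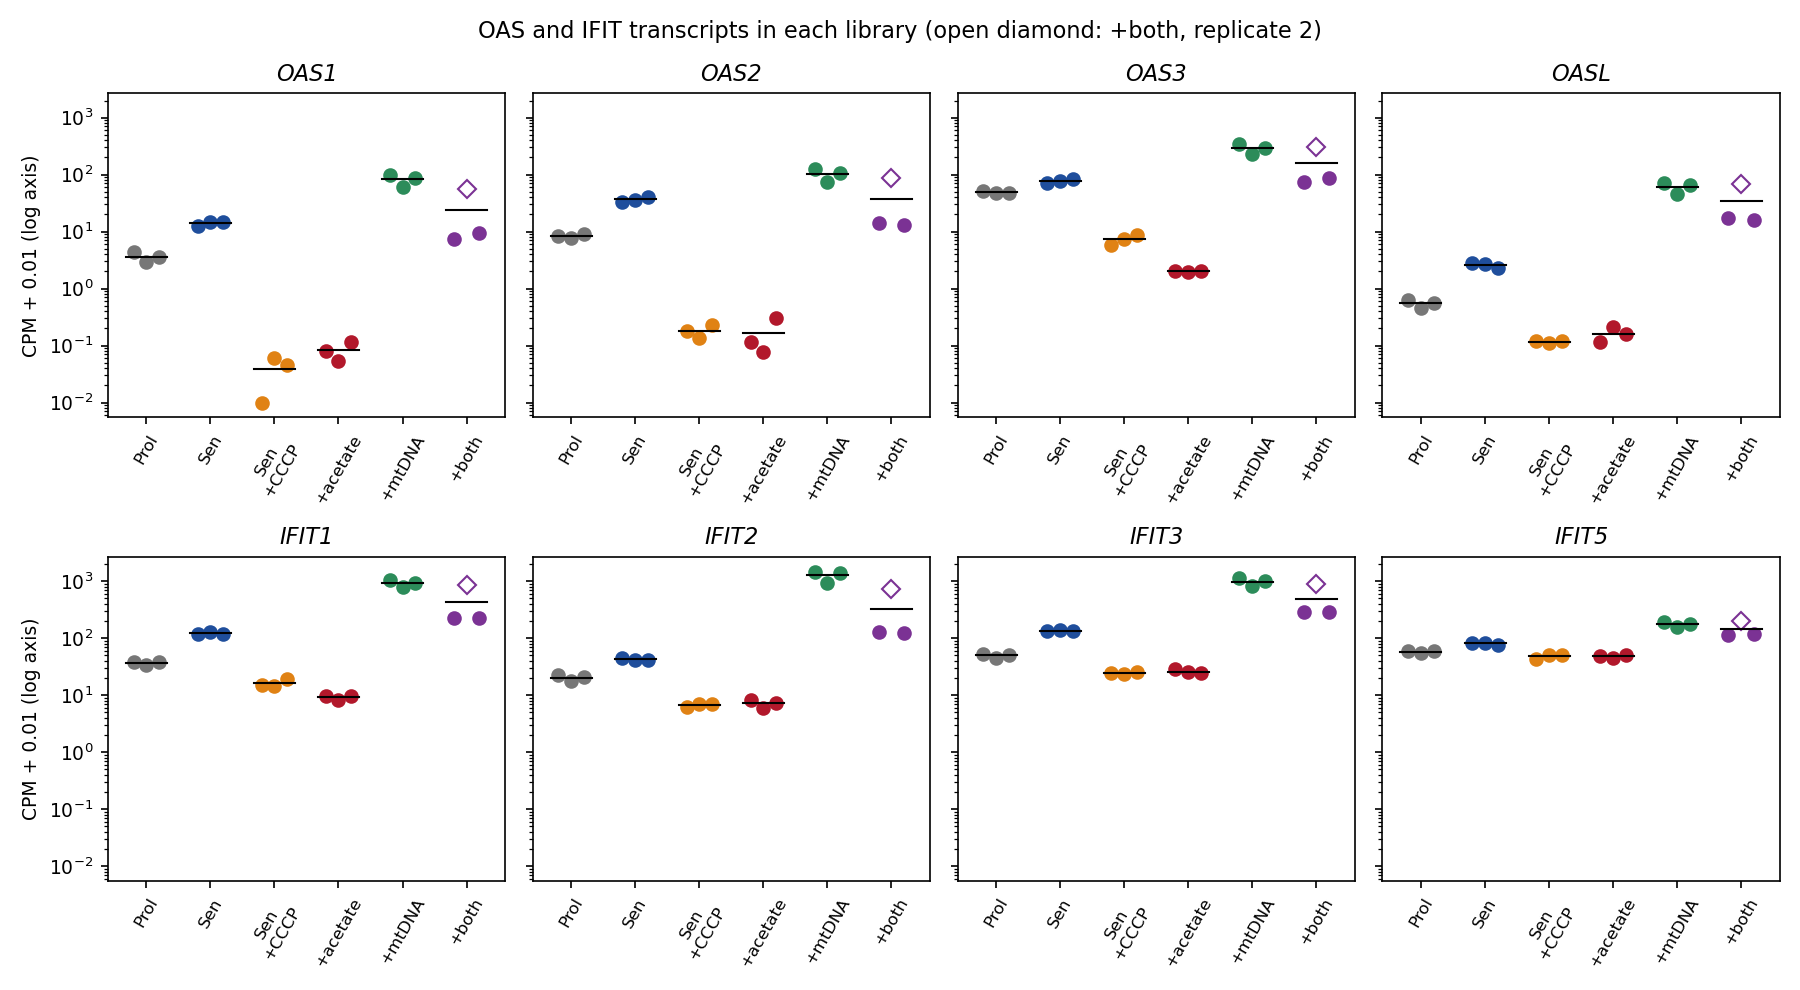
Level of each gene in all 18 libraries, as CPM plus 0.01 on a log axis; points are libraries, black lines are means of 3 and the open diamond is combination replicate 2. OAS1, OAS2 and OASL were near 0 in both groups with CCCP and no mtDNA, IFIT5 kept most of its level there, and all 8 genes were highest with mtDNA or in the open diamond.

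Senescence raised both families moderately. Of the 8 genes, 7 were called higher in Sen (IR) than in Prol (edgeR, adjusted p under 0.05), where 26.7% of all genes tested were called higher. All 8 genes were higher in every Sen (IR) library than in every Prol library, which 28.5% of genes tested were. Without Sen (IR) replicate 3, 6 of the 8 were called and IFIT2 was not. The 8 genes, over all libraries, had a median log2 fold change of 1.59, against -0.01 for all genes tested.

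Among the 2-5A synthetases, OAS1 stood at 4.34, 2.92 and 3.61 CPM in Prol and at 12.8, 14.5 and 14.6 CPM in Sen (IR), a log2 fold change of 1.94 ± 0.54 (SE, adjusted p = 0.00409, edgeR). OAS2, a synthetase of intermediate size, went from 8.37, 7.77 and 9.10 CPM to 33.7, 36.0 and 41.1 CPM, a log2 fold change of 2.12 ± 0.47 (adjusted p = 5.64e-04, edgeR). OAS3, the largest one and the main source of 2-5A in many cells, went from 51.6, 47.9 and 47.5 CPM to 70.2, 78.8 and 83.2 CPM. The groups do not overlap for any of these genes, but the change of OAS3 was small (0.66 ± 0.32) and was not called (adjusted p = 0.0893, edgeR). The fit to only these 6 libraries called it (0.70, adjusted p = 2.62e-06, edgeR). OASL was low in Prol, with 16, 12 and 21 counts, and had 118, 70 and 67 counts in Sen (IR), a log2 fold change of 2.27 ± 0.79 (adjusted p = 0.0178, edgeR), a call that was lost without Prol replicate 2 or 3 (adjusted p = 0.0509 and 0.0550).

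In the IFIT family, IFIT1 went from 37.8, 33.8 and 38.5 CPM to 118, 130 and 118 CPM (log2 fold change 1.73 ± 0.32, adjusted p = 9.88e-05, edgeR). Its partner IFIT3 went from 52.0, 45.3 and 51.4 CPM to 136, 141 and 131 CPM (1.46 ± 0.27). IFIT2 went from 22.7, 17.4 and 20.5 CPM to 45.03, 41.8 and 41.8 CPM (1.09 ± 0.45, adjusted p = 0.0447, edgeR). The IFIT2 groups are well apart, although leaving out any 1 of the 6 libraries ended its call (adjusted p 0.0717 to 0.120). IFIT5 changed least of the family, from 59.5, 55.6 and 58.8 CPM to 82.7, 82.7 and 76.7 CPM (0.48 ± 0.14, adjusted p = 0.00535, edgeR).

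With CCCP, the transcripts of both families fell below the senescent level, and those of OAS1, OAS2 and OASL were almost entirely lost. All 8 genes were called lower in Sen (IR) + CCCP than in Sen (IR), with a median log2 fold change of -3.16 against 0.03 for all genes. Of all genes tested, 31.3% were called lower and 34.0% higher in this comparison. All 8 genes were also lower in every library, which 32.3% of genes were. All 8 fibroblast markers were called lower as well, with a median log2 fold change of -2.29, and their summed TPM went from 9988 to 12002 in Sen (IR) to 5491 to 5682 with CCCP. Both epithelial markers with enough counts for the test, KRT19 and EPCAM, were also lower. The part of these changes in the levels of the OAS and IFIT genes was not tested. In bulk RNA, fewer expressing cells and less RNA per cell cannot be told apart.

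OAS1 had 544, 379 and 425 counts in Sen (IR) and 0, 2 and 1 counts in Sen (IR) + CCCP. The ratio of pooled counts, scaled for library size, was 0.00211, with an exact 95% interval of 4.35e-04 to 0.00618 that covers counting error only. OAS2 fell from 1435, 939 and 1193 counts to 6, 5 and 6 counts, a pooled ratio of 0.00452 (0.00263 to 0.00725). In all 3 CCCP libraries these 2 genes thus had fewer than 10 counts, and both were lower in Sen (IR) + CCCP than in Prol as well. OASL fell from 118, 70 and 67 counts to 4, 4 and 3 counts (log2 fold change -4.56 ± 1.07, adjusted p = 7.60e-04, edgeR). OAS3 fell less and remained well measured, at 212, 298 and 240 counts (5.91, 7.52 and 8.71 CPM), 9.53% of its mean CPM in Sen (IR) (-3.40 ± 0.39, adjusted p = 8.02e-08, edgeR).

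By estimate, the IFIT genes fell by smaller amounts that ranked IFIT1, IFIT2, IFIT3 and IFIT5. The error ranges of OAS3 (-3.40 ± 0.39) and IFIT1 overlap, and a difference between the families was not tested. IFIT1 was at 15.3, 14.2 and 19.2 CPM in Sen (IR) + CCCP, 13.3% of Sen (IR) (-2.92 ± 0.35). IFIT2 was at 6.22, 6.99 and 7.004 CPM, 15.7% of Sen (IR) (-2.67 ± 0.50), and IFIT3 at 24.2, 23.2 and 25.8 CPM, 17.95% of Sen (IR) (-2.48 ± 0.29). The changes of these 3 neighbours lie within their errors of each other. IFIT5, at 43.7, 49.9 and 50.8 CPM, kept 59.6% of its level (-0.75 ± 0.14, adjusted p = 6.08e-05, edgeR). Against Prol, 6 of the 8 genes were called lower with CCCP (34.1% of all genes tested were), and they fell by 1.02 (IFIT3) to 6.78 (OAS1) on the log2 scale. The exceptions were OASL (-2.29 ± 1.56, adjusted p = 0.197, edgeR) and IFIT5 (-0.27 ± 0.14, adjusted p = 0.0902, edgeR), both of which were lower in every library and were called when only these 6 libraries were fitted (adjusted p = 1.25e-04 and 1.13e-04).

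**Figure D2:**
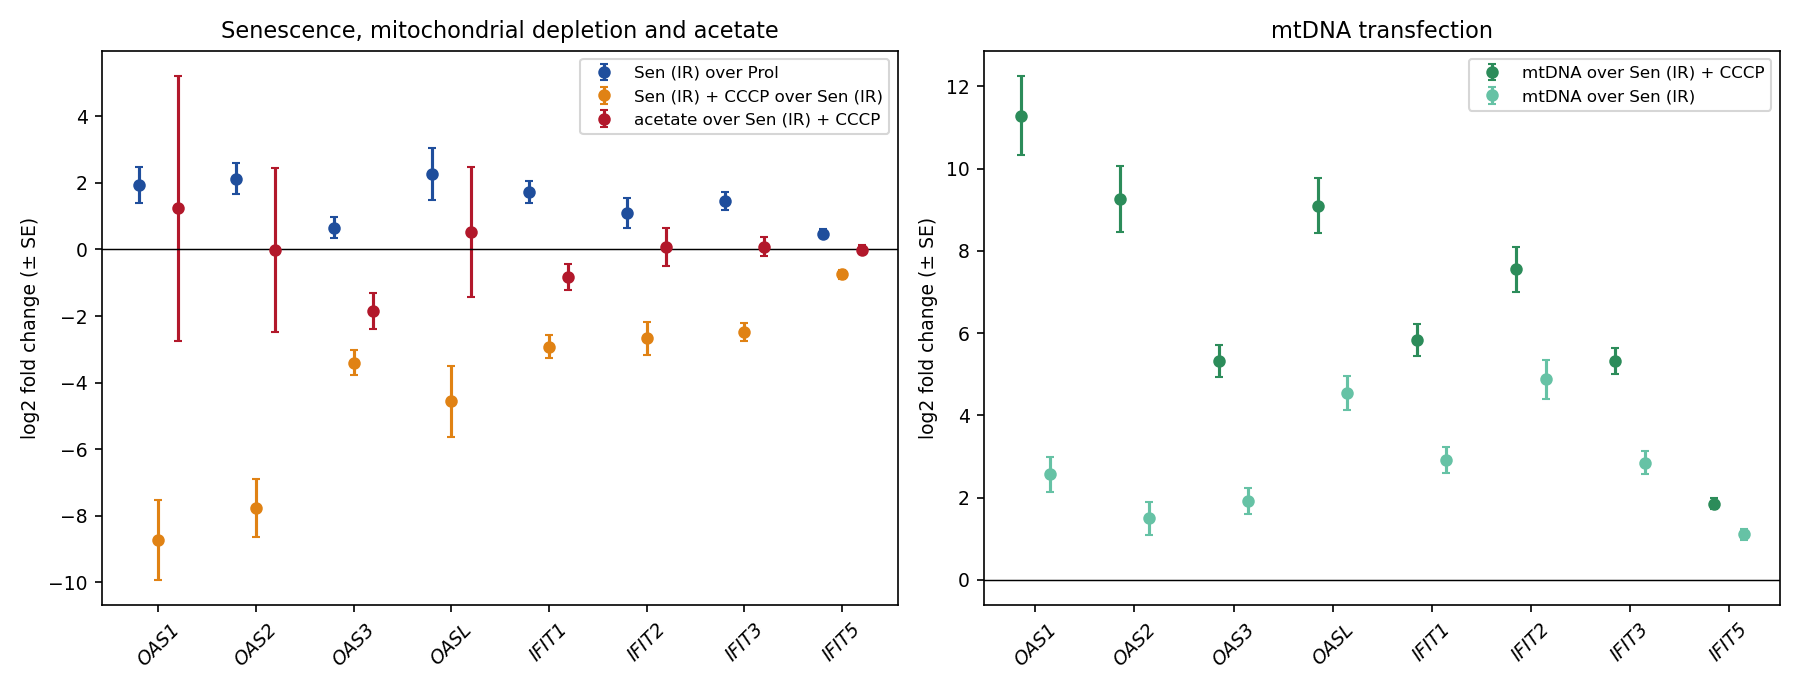
Fitted log2 fold change of each gene with its standard error. Left, Sen (IR) over Prol, Sen (IR) + CCCP over Sen (IR) and acetate over Sen (IR) + CCCP; right, mtDNA over Sen (IR) + CCCP and over Sen (IR). Every gene fell with CCCP, from -0.75 for IFIT5 to -8.72 for OAS1, and rose with mtDNA, from 1.85 for IFIT5 to 11.29 for OAS1.

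With acetate alone, none of the 8 genes was called higher than in Sen (IR) + CCCP, against 28.8% of all genes, and 1, OAS3, was called lower, against 28.3% of all genes. DESeq2 made the same calls, and at an unadjusted p under 0.05 edgeR had 0 of the 8 higher and 2 lower. Their median log2 fold change was 0.03, against 0.0054 over all genes tested. OAS3 was at 2.00, 1.98 and 2.06 CPM with acetate, below all 3 CCCP libraries, a further fall of 1.86 ± 0.54 on the log2 scale (adjusted p = 0.00559, edgeR), and so stood at 2.60% of its mean in Sen (IR).

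IFIT1 was likewise lower in all 3 acetate libraries, at 9.61, 8.17 and 9.53 CPM, without being called (-0.83 ± 0.38, adjusted p = 0.0668, edgeR). It was called in the fit to these 6 libraries (-0.84, adjusted p = 1.02e-07, edgeR). The other genes overlapped between the groups. OAS1 had 2, 2 and 5 counts, OAS2 3, 3 and 14 and OASL 3, 9 and 7, and at these depths a difference as small as the pooled ratio of 2.53 for OAS1 (exact 95% interval 0.632 to 14.6) was not detectable. IFIT2 was at 8.12, 5.99 and 7.24 CPM, IFIT3 at 28.4, 25.4 and 23.9 CPM and IFIT5 at 49.6, 44.5 and 49.8 CPM, with log2 fold changes of 0.07 ± 0.57, 0.08 ± 0.29 and -0.0048 ± 0.14.

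With transfected mtDNA, both families in the mitochondria-depleted cells rose far above any group without it. No mock-transfected group was labelled, so the part of the transfection itself was not tested. All 8 genes were called higher over Sen (IR) + CCCP, where 10.7% of all genes were called higher and 7.40% lower, and all 8 were higher in every library, which 20.1% of genes were. The 8 genes had a median log2 fold change of 6.69, against 0.0029 over all genes. The comparisons of acetate, mtDNA and the combination with Sen (IR) + CCCP share the same 3 control libraries, so their values are given side by side and not as independent results.

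OAS1 went from 0, 2 and 1 counts to 2727, 1674 and 2745 counts (98.6, 60.1 and 88.7 CPM), a pooled ratio of 2839 with an exact 95% interval of 971 to 13768. OAS2 reached 3540, 2104 and 3365 counts (128, 75.6 and 109 CPM), a pooled ratio of 632 (394 to 1085). OASL, the member without synthetase activity, reached 1970, 1266 and 2022 counts (71.2, 45.5 and 65.3 CPM), a pooled ratio of 570 (318 to 1142). These 3 were the genes with the fewest counts before mtDNA, and their ratios are correspondingly uncertain. OAS3 reached 349, 229 and 299 CPM, a log2 fold change of 5.32 ± 0.40 (39.9-fold, adjusted p = 2.90e-09, edgeR).

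IFIT2 rose most in its family, from 223, 277 and 193 counts to 40524, 25914 and 43073 counts (1465, 931 and 1391 CPM), a log2 fold change of 7.55 ± 0.55 (187-fold, adjusted p = 2.22e-09, edgeR). IFIT1 reached 1046, 777 and 936 CPM (5.83 ± 0.38, 57.0-fold) and IFIT3 reached 1122, 810 and 1007 CPM (5.33 ± 0.31, 40.2-fold). IFIT5 reached 191, 157 and 174 CPM, a rise of 3.61-fold (1.85 ± 0.14, adjusted p = 3.04e-09, edgeR). Replicate 2 of the mtDNA group was the lowest of the 3 for all 8 genes, at 1.22 (IFIT5) to 1.69 (OAS2) times below the highest library.

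The levels with mtDNA also exceeded those of senescent cells with their mitochondria, for all 8 genes (35.0% of all genes were called higher in this comparison). The excess over Sen (IR) differed widely between members: 29.4-fold for IFIT2 (log2 4.88 ± 0.47) and 23.3-fold for OASL (4.54 ± 0.42), 7.54-fold for IFIT1, 7.20-fold for IFIT3 and 5.92-fold for OAS1, and 3.78-fold for OAS3, 2.82-fold for OAS2 and 2.15-fold for IFIT5 (adjusted p at most 0.00237, edgeR). By estimate, OAS2 had the second smallest fold over Sen (IR), although its pooled ratio over Sen (IR) + CCCP was among the 3 largest. Those 3 ratios, of OAS1, OAS2 and OASL, have overlapping intervals. The 3 mtDNA libraries lay above the 3 Sen (IR) libraries for every member.

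On the per-length scale, the make-up of the families changed along with their sum. The summed TPM of the 8 genes was 204 ± 9.55 (SD, n = 3) in Prol, 507 ± 10.6 in Sen (IR), 147 ± 9.97 with CCCP, 129 ± 6.72 with acetate and 5129 ± 920 with mtDNA. OAS genes made up 15.1% ± 0.435 of that sum in Prol and 14.8% ± 1.30 in Sen (IR), but 3.48% ± 0.419 with CCCP, 1.27% ± 0.151 with acetate and 8.48% ± 0.413 with mtDNA. IFIT5 held the first rank by TPM in both groups with CCCP and no mtDNA, at 43.8% ± 1.96 and 46.3% ± 1.79 of the sum, and IFIT3 did in all other groups. With mtDNA the share of IFIT5 was 4.34% ± 0.426, and that of IFIT2 was 30.4% ± 2.00, against 6.01% ± 0.275 with CCCP alone and 8.21% ± 0.488 in Sen (IR). IFIT3 kept a share of 33.9% to 40.4% in these groups and 34.6% in Prol. Neighbours in the order did not differ beyond their spread for IFIT3 and IFIT2, for IFIT5 and OAS3, and for OASL, OAS1 and OAS2 with mtDNA, nor for IFIT2 and OAS3 in Sen (IR). The same held for OASL and OAS2 with CCCP, and with acetate for IFIT1 and IFIT2 and for OASL, OAS2 and OAS1. In the combination it held for every neighbouring pair, although IFIT3 ranked first within each of its libraries.

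**Figure D3:**
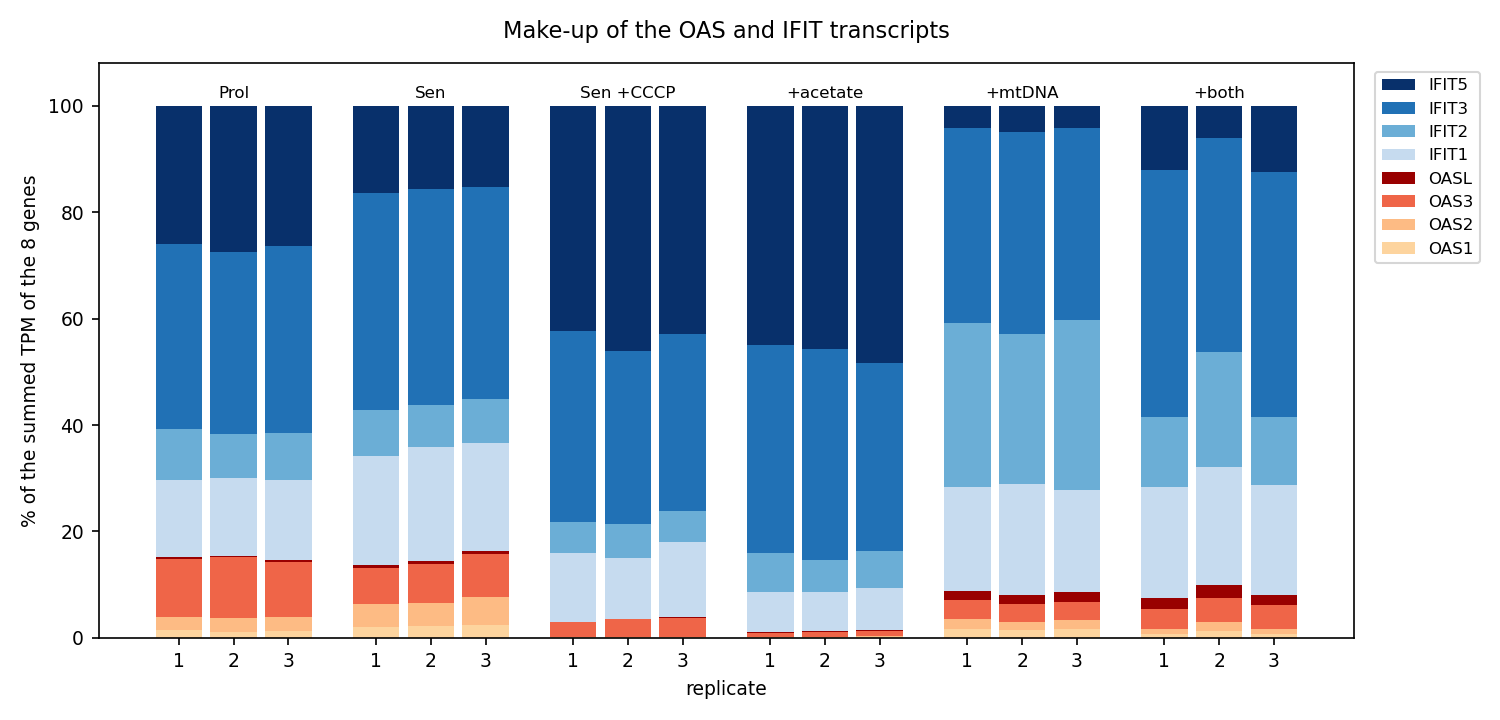
Share of each gene in the summed TPM of the 8 genes, in percent, for each library (bars, numbered by replicate). The blue IFIT5 segment takes 42.4% to 46.0% of the bar with CCCP and 4.09% to 4.84% with mtDNA, and the IFIT2 segment 28.2% to 32.1% with mtDNA.

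The combination of acetate and mtDNA gave 2 different sets of levels among its 3 libraries. All 8 genes were called higher than with CCCP alone (30.3% of all genes were, and 29.0% without combination replicate 2, when all 8 were again called) and higher than with acetate alone (6.57% of all genes, and 4.89% without that library, with all 8 called again). The rise over acetate, a contrast that shares no library with that of mtDNA over Sen (IR) + CCCP, had a median log2 fold change of 5.93, or 4.99 without combination replicate 2. The size of the rise, however, depended on the library.

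OAS1 had 277, 1360 and 272 counts in combination replicates 1, 2 and 3, which is 7.55, 55.7 and 9.52 CPM. OAS2 was at 14.2, 86.1 and 13.3 CPM, OAS3 at 75.0, 311 and 88.2 CPM and OASL at 17.3, 69.6 and 16.2 CPM. IFIT1 was at 227, 847 and 227 CPM, IFIT2 at 127, 732 and 125 CPM, IFIT3 at 289, 881 and 290 CPM and IFIT5 at 114, 200 and 119 CPM. Replicates 1 and 3 were close to each other for every gene and below all 3 mtDNA libraries, whereas replicate 2 lay within the range of the mtDNA libraries for OAS2, OAS3, OASL, IFIT1 and IFIT3, above it for IFIT5 and below it for OAS1 and IFIT2.

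Relative to the mean of the other two, replicate 2 was 6.53 times higher for OAS1, 6.25 for OAS2, 5.80 for IFIT2, 4.16 for OASL, 3.81 for OAS3, 3.73 for IFIT1, 3.05 for IFIT3 and 1.72 for IFIT5. The median of this ratio over all genes was 0.999, and 5.22% of genes had a ratio of at least the lowest of these. The same library had 30 IFNB1 counts against 4 and 6 in replicates 1 and 3, and 0.237% of its counts on mtDNA genes against 0.0640% and 0.0624%. The part of these differences in the levels of the 8 genes was not tested. Whether this library differs in its treatment or its label was not tested, and what the values with and without it mean depends on that.

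Compared with mtDNA alone, the combination was called lower for 7 of the 8 genes, where 29.9% of all genes were. The log2 fold changes were -1.95 ± 0.41 for IFIT2 and -1.81 ± 0.41 for OAS1, the only genes whose groups did not overlap, and -0.85 ± 0.32 to -1.49 ± 0.40 for OAS2, OAS3, OASL, IFIT1 and IFIT3. IFIT5 was not called (-0.27 ± 0.13, adjusted p = 0.0858, edgeR). Without combination replicate 2, all 8 were called lower (27.5% of all genes), with log2 fold changes of -3.31 for IFIT2, -3.27 for OAS1, -2.90 for OAS2, -2.004 for IFIT1, -1.84 for OASL, -1.83 for OAS3, -1.75 for IFIT3 and -0.56 for IFIT5. With all libraries, DESeq2 called 4 of the 8 lower. Mean levels with mtDNA alone were then 10.01 times those of replicates 1 and 3 for IFIT2 and 9.66 times for OAS1, but 1.49 times for IFIT5. OAS3 and OASL lost their call when combination replicate 1 or 3 was left out instead (adjusted p 0.107 to 0.178, edgeR), and also without mtDNA replicate 1 (adjusted p = 0.0752 and 0.107), as did OASL without mtDNA replicate 3 (adjusted p = 0.0806). The fit to only these 6 libraries called 3 genes, without OAS2, OAS3, OASL and IFIT1 (adjusted p 0.0602 to 0.162, edgeR).

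Against Sen (IR), the combination was called higher for 6 genes (32.2% of all genes), led by OASL (3.70 ± 0.43) and IFIT2 (2.93 ± 0.44). OAS1 (0.75 ± 0.44, adjusted p = 0.136, edgeR) and OAS2 (0.00 ± 0.41, adjusted p = 0.995) were not called. Without combination replicate 2 the latter pair turned: OAS1 was below Sen (IR) at a log2 fold change of -0.69 (adjusted p = 9.02e-04, edgeR), and OAS2 at -1.39 (adjusted p = 1.70e-08), where 32.2% of all genes were called lower. Without combination replicate 1 or 3, on the other hand, OAS1 was called higher than in Sen (IR) (1.24 and 1.16, adjusted p = 0.00622 and 0.0179, edgeR). Without replicate 2, OAS3 did not pass the test (0.11, adjusted p = 0.430, edgeR), and OASL and the 4 IFIT genes were called higher (32.3% of all genes), by 0.56 for IFIT5 to 2.72 for OASL. Replicates 1 and 3 thus held 61.0% of the Sen (IR) level of OAS1 and 37.3% of that of OAS2, but 647% of that of OASL and 294% of that of IFIT2.

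**Figure D4:**
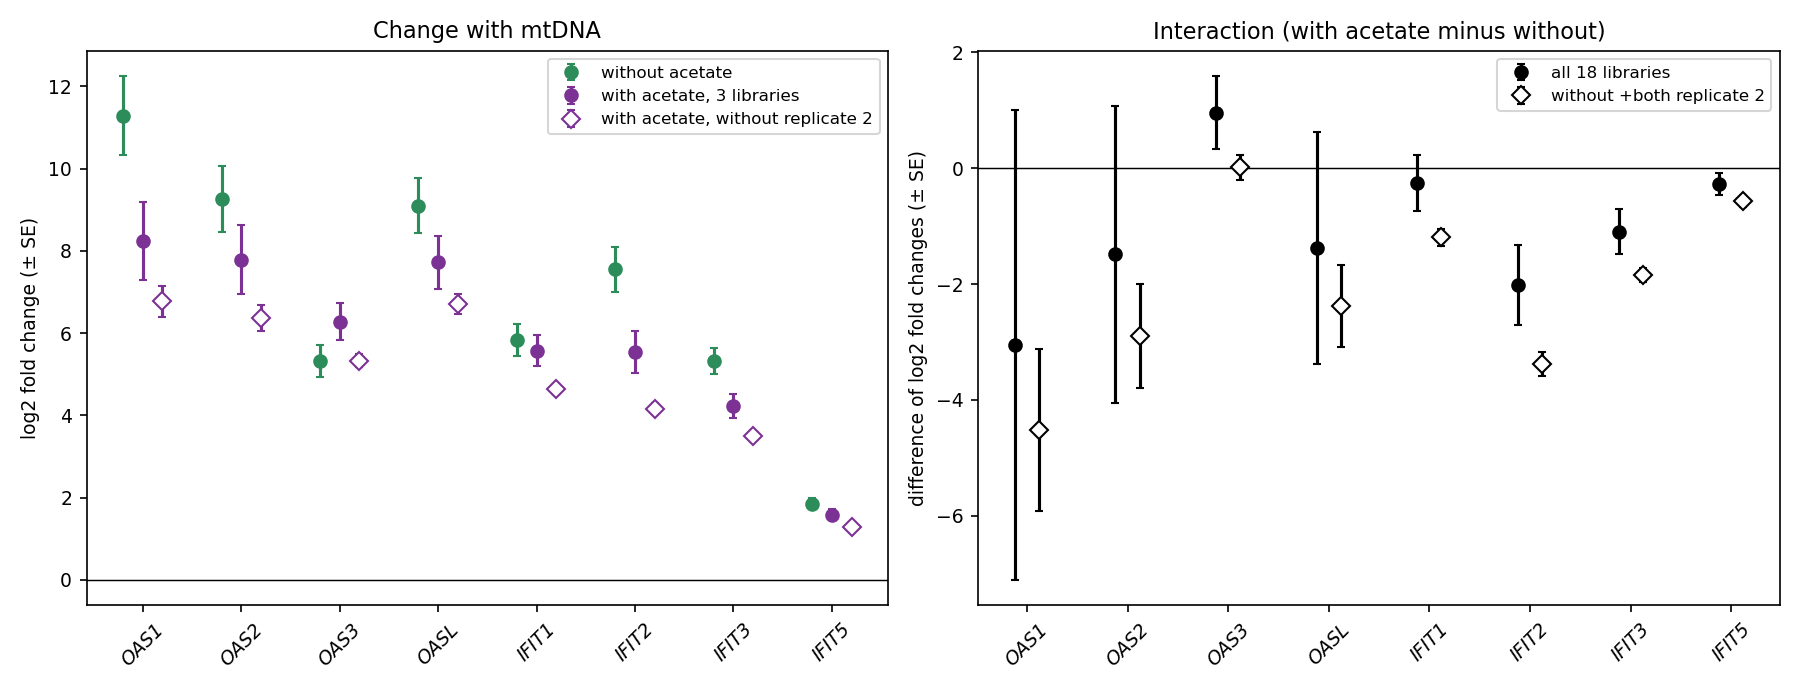
Left, log2 fold change with mtDNA in the absence of acetate (green) and in its presence, with all 3 combination libraries (purple circles) and without replicate 2 (open diamonds). Right, the interaction, which is the second change minus the first; bars are standard errors. IFIT2 moves from -2.02 to -3.38 and IFIT1 from -0.26 to -1.19 when replicate 2 is left out, and OAS3 goes from 0.96 to 0.01.

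For the interaction, the log2 change with mtDNA in cells without acetate was subtracted from that in cells with acetate. edgeR called 0 of the 8 genes with all 18 libraries, DESeq2 also called 0, and 2 (IFIT2 and IFIT3) had an unadjusted p under 0.05. Over all genes, 0.583% were called lower. The estimates were -2.02 ± 0.69 for IFIT2 and -1.10 ± 0.39 for IFIT3 (adjusted p = 0.236 and 0.246, edgeR), and the errors of OAS1 (-3.05 ± 4.06), OAS2 (-1.48 ± 2.57) and OASL (-1.37 ± 2.00) were too large to place them on either side of 0. Without combination replicate 2, all 4 IFIT genes were called lower and no OAS gene was (1.89% of all genes were called lower), IFIT2 at -3.38 ± 0.21 (adjusted p = 2.09e-10, edgeR), IFIT3 at -1.84 ± 0.13, IFIT1 at -1.19 ± 0.15 and IFIT5 at -0.57 ± 0.10. The OAS genes had interactions of -4.52 ± 1.41 (OAS1), -2.90 ± 0.90 (OAS2), -2.38 ± 0.70 (OASL) and 0.01 ± 0.21 (OAS3), with adjusted p of 0.0814 for OASL to 0.989 for OAS3 (edgeR). Whether the interaction differed between the families was not tested.

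Upstream and downstream genes of the same pathways were read from lists of known function. Interferon-β itself, IFNB1, had 0 counts in all 12 libraries without mtDNA, 25, 32 and 28 counts with mtDNA and 4, 30 and 6 with the combination. Against a floor of 3 counts over the Sen (IR) + CCCP group it was at least 33.8-fold higher with mtDNA, and against the same floor over the acetate group at least 18.1-fold higher with the combination, or at least 6.23-fold without replicate 2.

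Of the 9 sensing and induction genes, 5 were called higher with mtDNA, where 10.7% of all genes were: IFNB1, the RNA sensors IFIH1 (5.76 ± 0.40) and RIGI (3.50 ± 0.29), the factor IRF7 (4.41 ± 0.33) and the DNA sensor CGAS (0.33 ± 0.09). STING1, the adaptor of CGAS, did not pass the test with mtDNA (0.06 ± 0.09) and was lower with acetate (-1.25 ± 0.09, adjusted p = 1.16e-10, edgeR), where CGAS was also lower (-0.40 ± 0.10) and IFIH1 higher (1.61 ± 0.47). With CCCP over Sen (IR), IFIH1 (-3.36 ± 0.42), IRF7 (-1.49 ± 0.41) and RIGI (-1.48 ± 0.27) fell, and CGAS, STING1, TBK1, IRF3 and MAVS rose by 0.18 to 0.72. With the combination over acetate, 5 of the 9 were higher, where 6.57% of all genes were, and IRF3 was lower (-0.30 ± 0.07).

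Of 8 genes of interferon signalling, 4 were higher with mtDNA (10.7% of all genes): the interferon-induced protease USP18 (3.65 ± 0.31), the ISGF3 subunits IRF9 (1.54 ± 0.18) and STAT2 (1.51 ± 0.16), and JAK1 by 0.14 ± 0.04. With CCCP 6 of the 8 fell (31.3% of all genes), all but JAK1 (-0.03 ± 0.04) and TYK2 (-0.05 ± 0.07), led by the feedback inhibitor SOCS1 (-3.98 ± 0.37) and by USP18 (-1.62 ± 0.32). The median log2 fold change of these 8 was -0.79 with CCCP and 0.70 with mtDNA. USP18 had the same split within the combination as the OAS and IFIT genes, at 17.7, 57.9 and 18.5 CPM.

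With mtDNA, the 2-5A and cap methylation genes changed less than any of the OAS and IFIT genes. Of 3 genes of the 2-5A pathway, AKAP7, which can degrade 2-5A, rose by 0.81 ± 0.15 with mtDNA, ABCE1, also known for ribosome recycling, fell by 0.20 ± 0.06, and PDE12, which degrades 2-5A, did not pass the test (0.02 ± 0.05). AKAP7 (-0.45 ± 0.16, adjusted p = 0.0178, edgeR) and ABCE1 (-0.48 ± 0.06) were both lower with acetate. Among the 4 cap methylation genes, which methylate the caps of host messages, CMTR1 alone was called higher with mtDNA (1.00 ± 0.12) and CMTR2 alone was called lower with acetate (-0.59 ± 0.05). The 2 other double-stranded RNA effectors that were tested both rose with mtDNA, the kinase EIF2AK2 by 2.19 ± 0.12 and the editing enzyme ADAR by 1.12 ± 0.10, and ZBP1 had too few counts for the test. Of all genes, 10.7% were called higher and 7.40% lower with mtDNA, and 28.3% were called lower with acetate.

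**Figure D5:**
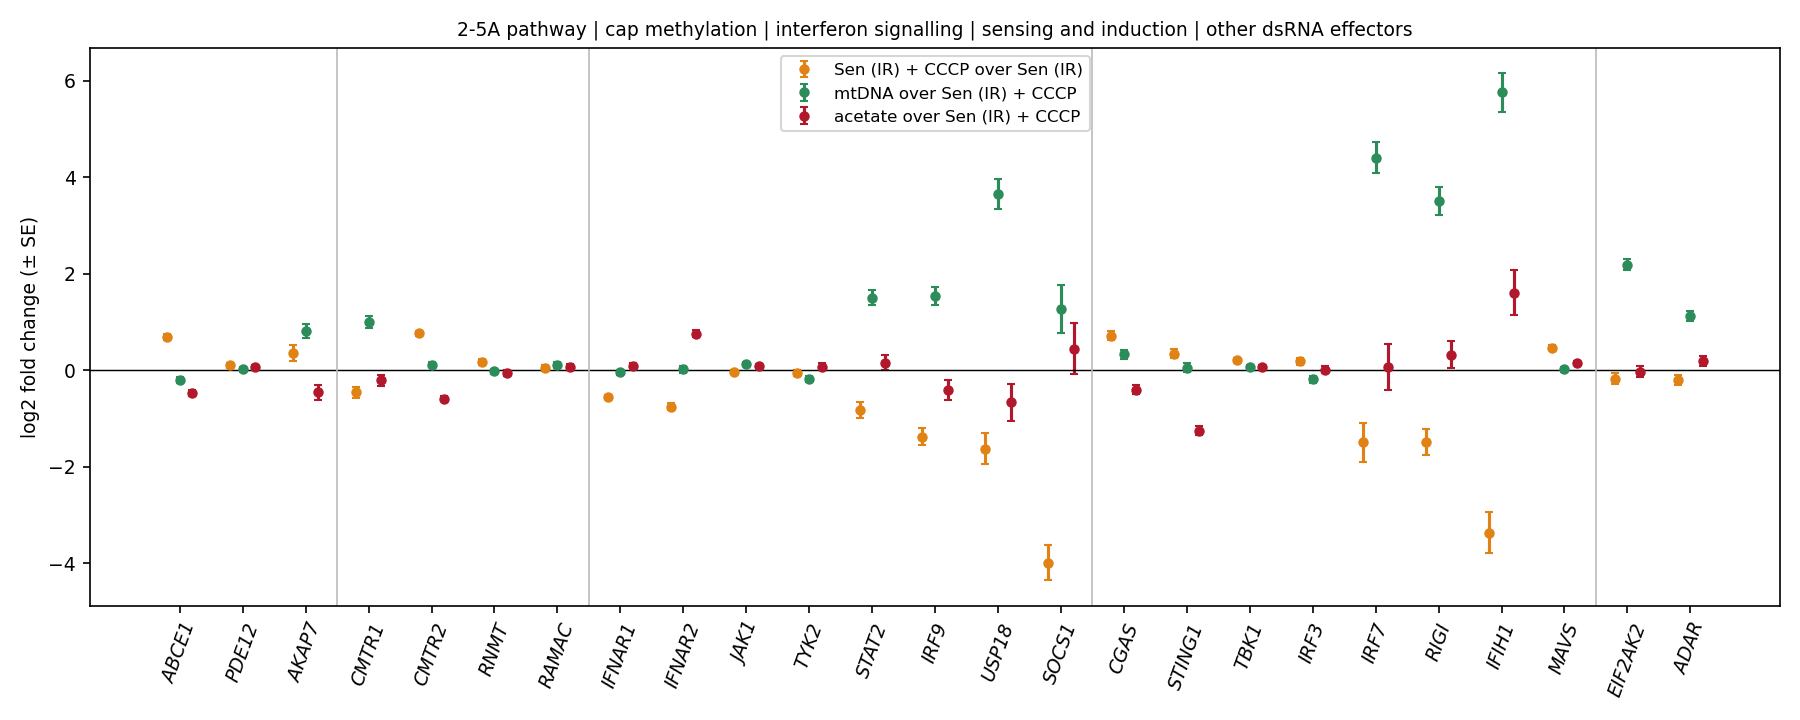
Log2 fold change with its standard error of the pathway genes other than IFNB1, in the order of the lists named above the panel, for Sen (IR) + CCCP over Sen (IR) (orange), mtDNA over Sen (IR) + CCCP (green) and acetate over Sen (IR) + CCCP (red). IFIH1, IRF7, USP18 and RIGI show the largest green values, 3.50 to 5.76, and PDE12 stays at 0.02.

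Of the neighbours of the clusters, some moved in the direction of the members. With CCCP over Sen (IR), P2RX7, beside OASL, fell by 1.02 ± 0.17, and beside or within the IFIT cluster SLC16A12 fell by 1.24 ± 0.24, LIPA by 1.31 ± 0.11 and CH25H by 2.70 ± 0.99, each a larger fall than that of IFIT5 (-0.75 ± 0.14). PTPN11 and DDX54 rose by 0.32 ± 0.10 and 0.30 ± 0.08 in that comparison. PTPN11 and DDX54, on either side of the OAS cluster, changed by -0.13 ± 0.10 and 0.16 ± 0.08 with mtDNA, neither of them called. P2RX7 was called higher (0.52 ± 0.18, adjusted p = 0.0488, edgeR), as was LIPA (0.53 ± 0.11). SLC16A12 changed by 0.02 ± 0.28 and was not called. CH25H, itself known as an interferon-stimulated gene, had 3, 0 and 0 counts with CCCP and 12, 7 and 15 with mtDNA, and was called higher (3.59 ± 0.89, adjusted p = 0.00688, edgeR), a change within the range of the members. IFIT1B, a further gene of the family, had 0 to 14 counts in any library and was not tested.

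Profiles over the 18 libraries were compared as log2 CPM after each gene's own mean was subtracted, so they differ in shape and not in level. The 5 other genes closest to the mean profile of the 8 members were MX2, IFI44, CCL5, ISG15 and IDO1. Their root mean square differences were 0.59, 0.64, 0.68, 0.78 and 0.82 on the log2 scale. The members themselves lay 0.38 (IFIT1) to 1.84 (IFIT5) from their own mean profile, with OAS1 (1.31), OAS2 (1.34) and OASL (1.02) also far from it. The same 5 genes were closest without combination replicate 2. MX2, the closest, was at 16.5, 83.5 and 18.6 CPM in the 3 combination libraries, with a mean of 73.2 CPM in the mtDNA group.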

How the data were processed

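The 18 RNA-seq libraries of IMR90 cells were assigned to 6 groups of 3 by their labels. Per the labels and the study's methods, the authors used Trimmomatic 0.36 for trimming, STAR 2.5.2b for alignment to GRCh38 and featureCounts (Subread 1.5.2) for gene counts over exons from uniquely mapped reads. The authors deposited raw counts per gene, which were tested here, and TPM, which were used for levels between genes and for shares. Counting was strand-aware for strand-specific libraries, and whether these were is not given in the sources used here. Of 57500 genes, 485 carry no symbol (0.0166% of counts). The OAS and IFIT genes were matched by symbol and the pathway lists by current or older symbols. A few list genes and a cluster neighbour are not reported here and are left out of the lists' counts. These members and lists were chosen with earlier results of these data known.

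A single quasi-likelihood model with a mean for each of the 6 groups was fitted to the 18 libraries with edgeR 4.0.16 (R 4.3.3, filterByExpr, TMM, common biological coefficient of variation 0.0644), and p-values were adjusted over 16994 genes by Benjamini-Hochberg with a threshold of 0.05. CPM use TMM-scaled library sizes, and standard errors are of fitted log2 values. Where a group had few counts, ratios of pooled counts carry exact 95% intervals, which cover counting error only, as do floors of 3 counts. The named genes were the 8 members, the lists, cluster neighbours and the 5 genes closest to the members' mean profile. Profiles were log2 CPM (prior count 2) with each gene's own mean subtracted. CH25H counts and USP18 levels within the combination were singled out after values were seen. Promoter motifs were searched in the RefSeq table of 35116 windows, and positions come from GENCODE release 44 on GRCh38. Alternatives were DESeq2 1.42.0 (size factors, Wald test), no filter, at least 10 counts in every library (13249 genes), a fit to the compared groups alone, a replicate block and leaving out each library. The fit was tested on simulated data with changes in the mtDNA group alone, in genes above the lowest counts. Those data held no library like combination replicate 2, so the test does not cover results that depend on it. Figures were drawn with matplotlib 3.10.9.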

Additional observations from a re-analysis of the deposited data

Results flagged for a closer look

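The change with mtDNA differed between cells with and without acetate for all 4 IFIT genes once combination replicate 2 was left out, by a test of the interaction in edgeR's quasi-likelihood fit. On the log2 scale the interaction was -3.38 ± 0.21 for IFIT2 (adjusted p = 2.09e-10), -1.84 ± 0.13 for IFIT3 (adjusted p = 7.50e-10), -1.19 ± 0.15 for IFIT1 (adjusted p = 7.14e-06) and -0.57 ± 0.10 for IFIT5 (adjusted p = 5.41e-04). Both remaining combination libraries lay below all 3 mtDNA libraries for each of these genes. With all 18 libraries, none of the 4 passed the threshold, and the estimate for IFIT1 was -0.26 ± 0.48. The fit without that library has 2 combination libraries, and whether that library differs in its treatment or its label was not tested.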

How the results depend on the processing

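Of 1068 values of single genes under the alternatives, 1007 kept their direction and their side of the threshold. The limits are the 3 libraries per group, the few counts of OAS1, OAS2 and OASL in both groups with CCCP and no mtDNA, and the spread that combination replicate 2 adds to every standard error. Without a filter on low counts, 2 genes were called for acetate and 4 for the interaction. These 4 were OAS1, IFIT2 and IFIT3, called lower, and OAS3, called higher (0.96). They are not the 4 IFIT genes called without combination replicate 2. The standard error of the IFIT2 interaction was 0.10 in that fit, against 0.69 with the filter. The cause of these differences was not tested. With at least 10 counts in every library, OAS1, OAS2 and OASL were not tested, which leaves 5 genes, and the counts of called genes were 4 for Sen (IR) over Prol and for the combination over mtDNA, and 5 for CCCP over Sen (IR), mtDNA over Sen (IR) + CCCP, the combination over Sen (IR) + CCCP and over acetate, and mtDNA over Sen (IR). For the combination over mtDNA, DESeq2's Wald test called 4 genes and the fit to only the groups compared called 3. The latter fit called 2 genes for acetate. DESeq2's size factors changed no call.

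Leaving out 1 library at a time gave 5 to 6 called genes for Sen (IR) over Prol, 5 to 8 for the combination over mtDNA, 6 to 7 for the combination over Sen (IR) and 0 to 4 for the interaction, the 4 without combination replicate 2. The fits that leave out 1 library turned the sign of genes near 0: for acetate, OAS2 ranged from -0.97 to 0.44, IFIT2 from -0.00085 to 0.20 and IFIT5 from -0.048 to 0.072 on the log2 scale. For the combination over Sen (IR), OAS1 ranged from -0.69 to 1.24 and OAS2 from -1.39 to 0.44, and the interaction of IFIT1 ranged from -1.19 to 0.045.

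The replicate numbers were not taken as pairs, since the deviations of same-numbered libraries correlated between -0.0821 and 0.0917 in 45 pairs of libraries. With the replicate number as a block, OAS2 in the combination over Sen (IR) was at -0.18, not called in either fit, and no call changed.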
